A study of Mus musculus with 4 samples.

Results

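Collagens, laminins and a few glycoproteins build the extracellular matrix of the lung, and Mmp, Adam and Adamts proteases with their Timp inhibitors cut and remodel it. The group described here holds every gene whose platform symbol names a collagen chain, a laminin chain, an Mmp, Timp, Adam or Lox family member, or is Fn1, Dcn, Eln or Sparc. Genes were chosen by symbol alone, and 77 of the 9153 named genes with a value on all 4 arrays belong to it, through 117 probes. A total of 80 such genes were on the array in 128 probes, and the remaining 11 probes, which carry a missing value, stayed out. Adamdec1, Adamtsl2 and Adamtsl4 are included by their names.

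Lungs of BALB/cJ mice that had been sensitized to ovalbumin, a protein of egg white that serves as the allergen, and then challenged with it were hybridised on 4 dual-colour arrays. Each array set them against a pool of lung RNA from 6 control animals, which the design text calls non-sensitized. In 2 arrays both lungs came from particle-free air, and in the other 2 both came from air with UCP, an abbreviation the labels do not explain. Array 1 of each air carried the challenged lung in Cy5 and array 2 carried it in Cy3. No genetic alteration, dose, time or age is given in the sources used here. Challenged lungs had also been sensitized, so sensitization and challenge cannot be told apart, and the pool leaves out the spread among controls. Whether both arrays of an air hold separate animals is not stated, so p-values cover only array-to-array spread, possibly technical.

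Every value below is a log2 ratio, challenged lung divided by the pool, so 1 is a 2-fold and 0.58 a 1.5-fold difference. They are ratios, not levels, and genes cannot be ranked by abundance from them. The arrays held 19349 to 19832 probe values with medians from -0.07 to 0.02. Their number limits the precision of every value. The relative direction of the arrays follows from the values themselves, but the overall sign, challenged over control, can be called likely at most. Its basis is the common practice of dividing Cy5 by Cy3, and 7 genes typical of allergic airways, such as Chil3 and Retnla, whose median was 3.13. In whole lung RNA, more cells of a type and more RNA per cell cannot be told apart.

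The fibrillar collagens, foremost types I and III, form the tensile fibres of airway and vessel walls, and type V collagen joins them. Type IV collagen and laminins form basement membranes, and type VI collagen forms fine filaments around cells. Fibronectin (Fn1) is an adhesive glycoprotein of provisional matrix, and lysyl oxidases cross-link collagen and elastin. In asthma, matrix thickens beneath the airway epithelium, and transforming growth factor beta and interleukin-13 are known drivers of matrix synthesis.

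The first question was how these genes lay in challenged lung, averaged over both airs. The highest were Col3a1, the chain of type III collagen, at 1.60 ± 0.47, and Adam8, a membrane protease of leukocytes, at 1.32 ± 0.33 (SD, n = 4 each). Col6a2, a type VI collagen chain, lay at 0.92 ± 0.44 and the protease inhibitor Timp1 at 0.83 ± 0.35. The lowest with 1 direction on all 4 arrays were Col11a2, a cartilage-type fibrillar collagen, at -1.15 ± 1.06 and decorin (Dcn), a proteoglycan that binds collagen fibrils, at -1.07 ± 0.42 (SD, n = 4 each). The 77 genes as a group lay near 0: 41 were above and 36 below, with a median of 0.06 beside -0.01 over all 9153 genes. Of all genes, 4419 were above 0 and 4734 below.

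None of the 77 passed limma's test at an adjusted p of 0.05 over all genes, where 0.0983% of genes did. The smallest adjusted p was 0.0814 for Adam8, followed by 0.115 for Col3a1 and Dcn (limma, Benjamini-Hochberg). At an unadjusted p under 0.05 there were 14 of the 77, which is 18.2% beside 15.6% of all genes. Of these 11 were higher, 14.3% of the group beside 8.06% of all genes, and 3 lower, 3.90% beside 7.56%. Without array 2 of UCP air the count of 14 became 8. Above 0 on all 4 arrays were 13 genes, 16.9% beside 14.2% of all genes, and below 0 on all 4 were 8, 10.4% beside 14.1%. At least 1.5-fold higher on all 4 arrays were 2, Col3a1 and Adam8, 2.60% beside 1.16% of all genes, and at least 1.5-fold lower was 1, Dcn, 1.30% beside 1.02%. With 1 array left out, the rule asks 1.5-fold of the remaining arrays only, so these counts can only stay or rise. The higher count was then 5 without array 2 of particle-free air, and the lower count was 2 without array 1 of UCP air. Whether these shares differ from those of all genes was not tested.

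**Figure D1:**
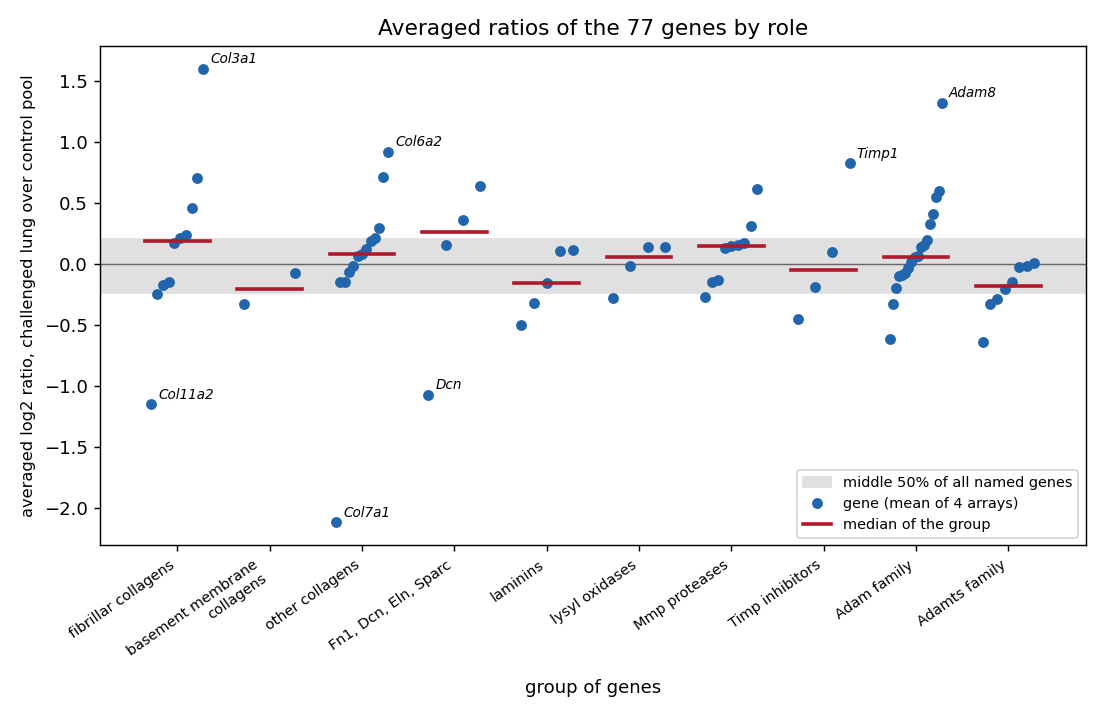
Averaged log2 ratio (y axis, mean of 4 arrays) of each of the 77 genes, placed by role on the x axis. Red bars are group medians and the grey band holds the middle 50% of all named genes. Most points sit in or near the band, with Col3a1 (1.60), Adam8 (1.32), Col6a2 (0.92) and Timp1 (0.83) above it and Col11a2 (-1.15) and Dcn (-1.07) below. Col7a1 (-2.12) rests on 1 value at the cap of the ratio.

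Promoter windows were set beside these values to show the sequence before the start of a few genes with 1 sign on all arrays. RefSeq sequences (GRCm38.p6) were used for 45 of the 77 genes, in 50 windows of the 200 bases before the transcript start. Member windows on 1 chromosome were left out, a filter not applied to the set of all windows. The 6 below were chosen after the values were seen: 5 of genes with high ratios and, last, Adamts1 with a low one. Each has 1 window in the table. Col6a2 has 2, of which 1 holds CAGAC, and is not shown. They are written 5′ to 3′ on the gene's strand, and capitals mark matches to any of the motifs searched.
Col3a1, chr1:45311338-45311537, plus strand: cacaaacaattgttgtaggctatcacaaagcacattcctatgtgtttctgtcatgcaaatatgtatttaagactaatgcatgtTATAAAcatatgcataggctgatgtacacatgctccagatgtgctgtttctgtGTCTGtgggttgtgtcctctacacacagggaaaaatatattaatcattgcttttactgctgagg
Col1a2, chr6:4505418-4505617, plus strand: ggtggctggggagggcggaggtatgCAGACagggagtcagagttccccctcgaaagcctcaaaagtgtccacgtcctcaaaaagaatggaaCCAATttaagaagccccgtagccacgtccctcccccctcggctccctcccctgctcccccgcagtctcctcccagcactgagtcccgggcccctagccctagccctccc
Adam8, chr7:139992563-139992762, minus strand: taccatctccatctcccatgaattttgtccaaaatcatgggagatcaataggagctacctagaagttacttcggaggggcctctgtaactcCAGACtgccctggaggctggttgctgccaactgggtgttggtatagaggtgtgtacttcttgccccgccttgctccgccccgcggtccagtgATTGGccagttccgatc
Timp1, chrX:20869966-20870165, plus strand: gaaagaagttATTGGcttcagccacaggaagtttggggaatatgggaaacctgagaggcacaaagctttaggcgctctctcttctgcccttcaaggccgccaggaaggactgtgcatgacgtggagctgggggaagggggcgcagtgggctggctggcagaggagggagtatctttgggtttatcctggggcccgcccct
Mmp13, chr9:7272314-7272513, plus strand: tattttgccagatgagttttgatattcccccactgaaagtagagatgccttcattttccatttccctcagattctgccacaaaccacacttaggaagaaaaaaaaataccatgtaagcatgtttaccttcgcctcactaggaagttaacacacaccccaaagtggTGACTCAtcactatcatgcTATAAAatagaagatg
Adamts1, chr16:85803114-85803313, minus strand: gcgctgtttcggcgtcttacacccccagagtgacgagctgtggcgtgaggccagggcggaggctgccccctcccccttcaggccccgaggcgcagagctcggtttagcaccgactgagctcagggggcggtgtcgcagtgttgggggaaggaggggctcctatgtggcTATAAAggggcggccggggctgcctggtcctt

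The motifs were searched on both strands. CAGAC, the core bound by SMAD proteins downstream of transforming growth factor beta, was found in the windows of Col3a1 (64 bases before the start), Col1a2 (175 bases) and Adam8 (109 bases). It was in 20 of the 50 member windows, 40.0%, beside 35.5% of all 32851 windows of this length. The AP-1 motif TGANTCA stood 35 bases before the start of Mmp13 and was in 5 of the 50 windows, beside 5.48% of all. The STAT6 motif of interleukin-4 and interleukin-13 signalling, TTC and GAA with 4 bases between, was in 0 of the 50, beside 4.53% of all. CCAAT was in 14 (29.3% of all windows), among them those of Col1a2, Adam8 and Timp1, and TATAAA in 6 (9.96% of all), among them those of Col3a1, Mmp13 and Adamts1. Matches of different motifs may overlap. A match only describes the letters of a window, and the high-ratio genes shown share no single motif.

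Among the fibrillar collagens 6 of 10 lay above 0, with a median of 0.19. Col3a1 had ratios of 1.07 and 2.15 in particle-free air and of 1.41 and 1.78 in UCP air. All 4 values exceeded a 2-fold difference, the airs overlapped, and the mean corresponds to a 3.03-fold higher level (limma adjusted p = 0.115). Col1a2, the second chain of type I collagen, had 0.74 and 0.50 in particle-free air and 0.75 and 0.84 in UCP air. These values lay close together around a mean of 0.71 ± 0.14 (SD, n = 4), averaged over 4 probes, with a limma adjusted p of 0.152. Col1a1, the partner chain of Col1a2 in type I collagen, had 0.60 and -0.25 in particle-free air and 0.31 and 0.28 in UCP air. Its mean of 0.23 ± 0.36 (SD, n = 4) joins probes that disagreed, as given below.

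Col5a2, a type V chain that joins type I fibrils, had 0.43 and 0.37 in particle-free air and 0.58 and 0.46 in UCP air. It was among the steadiest of the group, with a mean of 0.46 ± 0.08 (SD, n = 4) and a limma adjusted p of 0.239. The other type V chains were less even, with Col5a1 at 0.21 ± 0.52 and Col5a3 at -0.15 ± 0.61. The cartilage-type fibrillar collagens were uneven, and among them only Col11a2 lay below 0 on all 4 arrays. Col2a1, the main chain of cartilage fibrils, was at -0.25 ± 0.31 and Col11a1 at -0.17 ± 0.30, each with arrays on both sides of 0. Col11a1 lay at -2.16 once a probe with a missing value, capped on array 2 of particle-free air, was admitted. Col11a2 had -0.94 and -1.01 in particle-free air but -0.05 and -2.59 in UCP air, so its mean rests on unequal arrays. Without array 2 of UCP air it was -0.51 and without array 1 of UCP air -1.78, beside -1.20 and -0.95 for Dcn. Markers of cartilage showed no common direction, with 3 of the 7 measured above 0 and medians between -0.36 and 0.20 on single arrays, and 1 of them is a gene of the group. Col27a1, a long fibrillar chain, was at 0.17 ± 0.41.

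Type VI collagen stood next. Col6a2 had 0.90 and 1.33 in particle-free air and 0.32 and 1.12 in UCP air, a mean 1.89-fold above the pool (limma adjusted p = 0.181). Col6a1, the partner chain, had 1.31, -0.41, 0.88 and 1.06 in the same order. It was high on 3 arrays and below 0 on array 2 of particle-free air, where Col6a2 was highest. Col6a4, another type VI chain, had -0.18 and -0.60 in particle-free air and 0.29 and 0.74 in UCP air, and its mean was 0.06. Its sign thus differed between the airs.

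Some of these chains are neighbours in the genome. In the RefSeq gene order (GRCm38.p6), Col3a1 and Col5a2 are adjacent protein-coding genes, as are Col6a1 and Col6a2, and Col4a1 and Col4a2. The means of the first pair were 1.60 and 0.46, of the second 0.71 and 0.92, and of the third -0.33 and -0.08. The means of each pair thus shared a sign, but Col6a1 and Col4a2 had single arrays on both sides of 0. How often adjacent genes share a sign over all genes was not counted. The remaining 4 of the 7 adjacent pairs are Adam genes and lay at 0.16 or nearer to 0, apart from Adam5 at -0.32. Adam5 lay on the other side of 0 from its neighbours Adam3 (0.06) and Adam32 (0.01).

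Both type IV collagen chains and 3 of 5 laminin chains lay below 0. Col4a1 had -0.41 and -0.55 in particle-free air and -0.11 and -0.25 in UCP air, with a mean of -0.33 ± 0.19 and a limma adjusted p of 0.338 (SD, n = 4). Its partner chain Col4a2 lay at -0.08 ± 0.21. Among the 5 laminin chains, Lamb2 had -0.31 and -0.58 in particle-free air and -0.16 and -0.22 in UCP air, and was below 0 on all arrays. Lamc1, the common gamma chain, was at -0.50 ± 0.52, Lama4 at -0.16 ± 0.20, Lama5 at 0.12 ± 0.20 and Lama1 at 0.11 ± 0.31 (SD, n = 4 each).

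Of the other collagens, Col26a1 lay at 0.29 ± 0.35, Col14a1 at 0.21 ± 0.77 and Col16a1 at 0.19 ± 0.68. Col25a1, Col18a1 (the source of endostatin), Col9a3, Col13a1, Col9a2 and Col23a1 all lay between -0.15 and 0.13. Col9a2 had 0.71 and 0.91 where the challenged lung was in Cy5 and -1.65 and -0.56 where it was in Cy3, so its sign went with the dye. Col7a1, the anchoring fibril collagen, had 0.05, -8.31, 0.51 and -0.72, since 1 of its 2 probes lay at the cap of the ratio on array 2 of particle-free air. Its other probe averaged -0.18.

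The 4 glycoproteins differed among themselves. Fn1 had 0.70 and 0.50 in particle-free air and 0.70 and 0.65 in UCP air. The airs overlapped, and the mean of 0.64 ± 0.09 (SD, n = 4) over 5 probes had a limma adjusted p of 0.168. Dcn had -0.84 and -0.67 in particle-free air and -1.64 and -1.14 in UCP air. Both UCP values lay below both particle-free ones, and the mean was 2.10-fold below the pool. Sparc, a collagen-binding matricellular protein, had 0.47, 0.27, 0.34 and 0.36, a narrow spread around 0.36 ± 0.08 (SD, n = 4, limma adjusted p = 0.313). Elastin (Eln) had 0.77 and 0.06 in particle-free air and -0.47 and 0.28 in UCP air, and had no common direction.

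**Figure D2:**
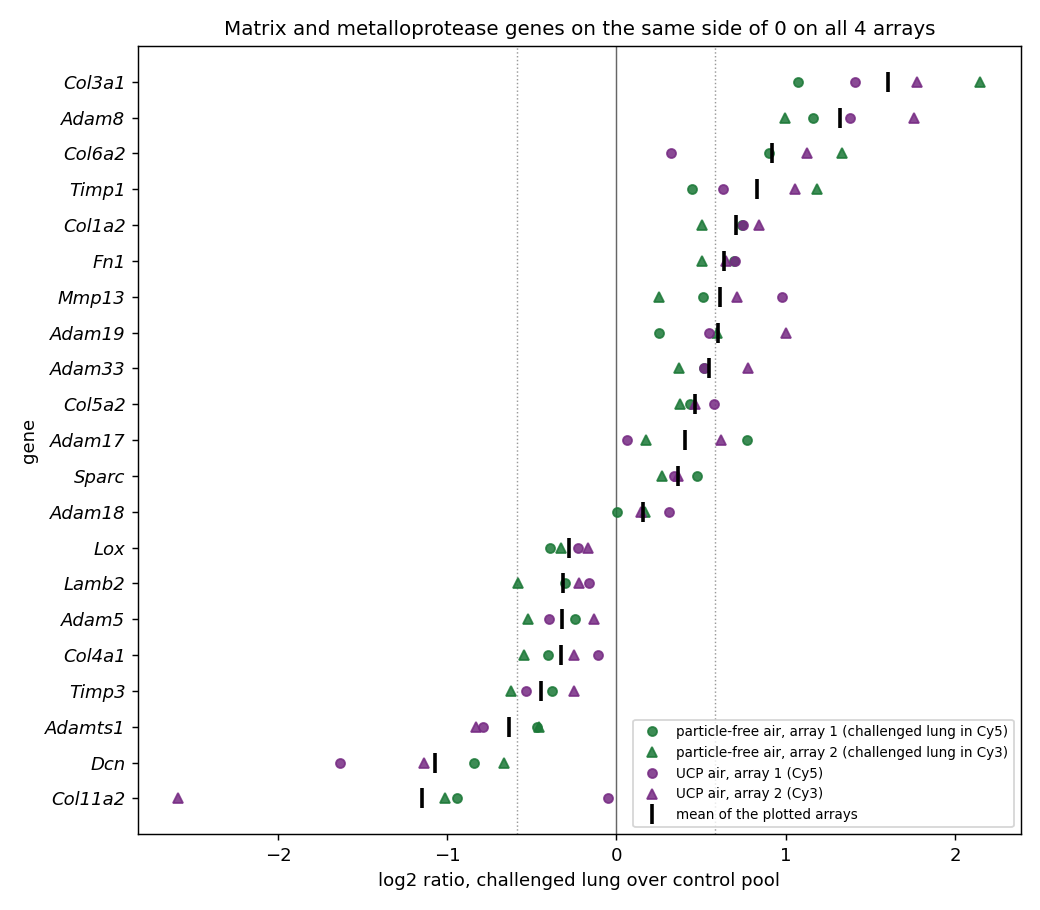
Log2 ratio (x axis) on each array of the 21 genes that lay on the same side of 0 on all 4 arrays, with genes on the y axis. Green marks particle-free air, purple UCP air, circles Cy5 and triangles Cy3 labelling of the challenged lung, black ticks the mean, and dotted lines a 1.5-fold difference. Col3a1 and Adam8 lie beyond the upper dotted line with all 4 arrays, and Dcn beyond the lower one.

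Of the lysyl oxidases, Lox was low and even, at -0.39 and -0.33 in particle-free air and -0.23 and -0.17 in UCP air. Its mean was -0.28 ± 0.10 (SD, n = 4, limma adjusted p = 0.382), and both UCP values lay above both particle-free ones. Loxl2 lay at -0.02 ± 0.32 and Loxl3 at 0.14 ± 0.43. Loxl1, which acts on elastin, had 1.52 and -1.13 in particle-free air and -0.24 and 0.42 in UCP air. Its mean of 0.14 ± 1.11 joins particle-free arrays that lay far from 0 in opposite directions.

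Among the 9 Mmp genes 6 lay above 0, with a median of 0.15. Mmp13, a collagenase, had 0.51 and 0.25 in particle-free air and 0.98 and 0.71 in UCP air. All were above 0 and both UCP values lay higher, with a mean of 0.61 ± 0.31 (SD, n = 4, limma adjusted p = 0.198). Mmp3, stromelysin 1, lay at 0.31 ± 0.58, and the gelatinases Mmp9 and Mmp2 at 0.15 ± 0.17 and 0.13 ± 0.51. The membrane-bound Mmp14 lay at 0.17 ± 0.43 and Mmp24 at 0.16 ± 0.21. Mmp11, Mmp17 and Mmp23 lay at -0.27 ± 0.73, -0.15 ± 0.43 and -0.13 ± 0.55 (SD, n = 4 each).

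The Timp inhibitors lay on both sides of 0. Timp1 had 0.45 and 1.19 in particle-free air and 0.63 and 1.05 in UCP air, with array 2 the higher in each air. Its mean was 0.83 ± 0.35, a 1.78-fold higher level (limma adjusted p = 0.198, n = 4). Timp3, the inhibitor that binds to matrix, had -0.38, -0.62, -0.54 and -0.25. All were below 0, with a mean of -0.45 ± 0.17 (SD, n = 4, limma adjusted p = 0.275). Timp2 lay at 0.10 ± 0.08 and Timp4 at -0.19 ± 0.31.

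In the Adam family, membrane proteases that also shed cell surface proteins, 11 of 18 lay above 0, with a median of 0.06. Adam8 had 1.16 and 0.99 in particle-free air and 1.38 and 1.76 in UCP air. Every value was near or above 1 and the UCP values lay above the particle-free ones, with a mean 2.50-fold above the pool. Adam19 had 0.25, 0.60, 0.55 and 1.002, around 0.60 ± 0.31 (limma adjusted p = 0.226, n = 4). Adam33, a gene linked to asthma in human genetics, had 0.52 and 0.37 in particle-free air and 0.52 and 0.78 in UCP air, around 0.55 ± 0.17 (limma adjusted p = 0.217, n = 4). The sheddases Adam17 and Adam10 lay at 0.41 ± 0.34 and 0.20 ± 0.27, and Adam12 at 0.32 ± 0.60 (SD, n = 4 each). Genes known mainly from testis and sperm, Adam3, Adam18, Adam30 and Adam32, lay between -0.19 and 0.16, and Adam5 and Adam29 at -0.32 and -0.62. Adamdec1, Adam7, Adam11, Adam15, Adam23 and Adam1a lay between -0.10 and 0.14.

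The Adamts family holds secreted proteases of proteoglycans and procollagen and, in Adamtsl2 and Adamtsl4, related proteins without a protease domain. Of the 8 genes 7 lay below 0, and the median of the 8 was -0.18. Adamts1, which cleaves aggrecan and versican, had -0.47 and -0.46 in particle-free air and -0.79 and -0.83 in UCP air. The arrays of each air nearly coincided, and the mean was -0.64 ± 0.20 (SD, n = 4, limma adjusted p = 0.158). Adamts10 was at -0.32 ± 0.41, with -0.46 and -0.85 in particle-free air and -0.01 and 0.02 in UCP air. Adamts12, Adamts17, Adamtsl4, Adamtsl2 and Adamts7 lay between -0.29 and -0.01, and Adamts16 at 0.01. The Adamts7 arrays of particle-free air read -2.08 and 0.92.

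Averaging probes hid much for a few genes. Of the 27 members with several probes, 4 had probe means more than 1 apart, and for 12 the probes fell on both sides of 0. The 5 Fn1 probes averaged -0.48, 0.38, 0.51, 0.76 and 2.01. The highest read 1.93, 2.05, 1.73 and 2.31 on the arrays and the lowest -0.65, -0.64, -0.16 and -0.46, so each repeated its own value. In the test by probe the highest had a limma adjusted p of 0.0818 over 18160 probes, the smallest of all 117 member probes. All 5 carry 1 transcript accession in the platform annotation, and the part of the transcript each reads was not analysed here.

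Timp3 behaved alike. Its lowest probe read -1.46, -1.34, -1.49 and -1.89 (limma adjusted p = 0.100), while the others averaged -0.49, -0.26 and 0.51. The Col1a1 probes averaged -0.37 and 0.84, the latter with 1.06, 0.53, 0.86 and 0.89. The higher Col5a2 probe read 0.90, 1.01, 1.04 and 0.61 and the other averaged 0.03. The 4 Col1a2 probe means ran from 0.45 to 0.92, and the 3 Sparc probes all averaged 0.36. By single probe, 5 were at least 1.5-fold higher on all 4 arrays (1.13% of all probes), from Col3a1, Adam8, Fn1, Col1a2 and Col5a2. At least 1.5-fold lower were 2 (1.2% of all probes), from Dcn and Timp3.

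**Figure D3:**
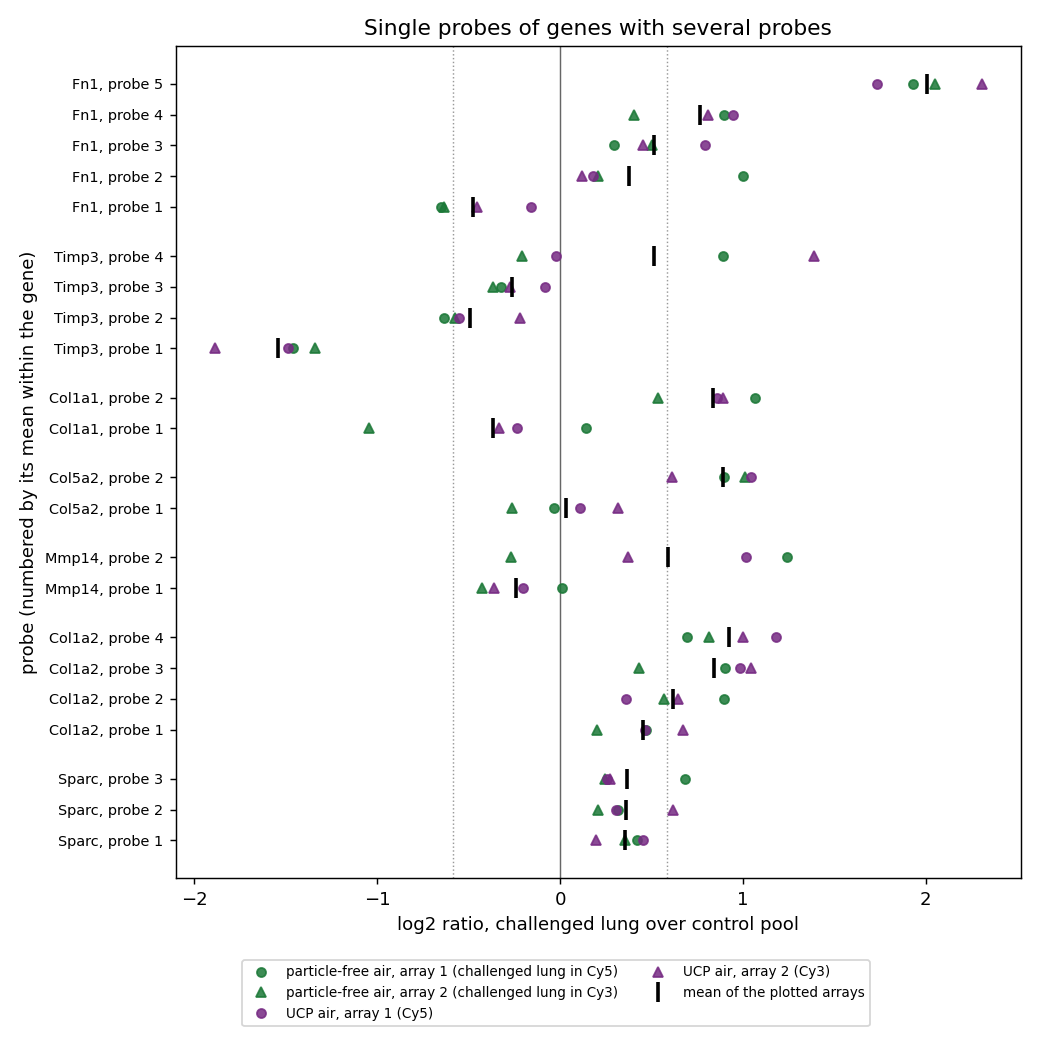
Log2 ratio (x axis) of single probes on each array, for 7 genes with several probes, numbered by mean within each gene on the y axis. Symbols mark air and dye, ticks the mean over 4 arrays, and dotted lines a 1.5-fold difference. Fn1 probes range from -0.48 to 2.01 and Timp3 probes from -1.54 to 0.51, while the Sparc probes all average 0.36.

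The next question was what challenge changed within each air. In particle-free air limma called 0 of the 77 genes, with 0.0109% called of all genes, and 9 had an unadjusted p under 0.05 (11.3% of all genes). At least 1.5-fold higher on both arrays were 3 (3.73% of all genes), Col3a1, Adam8 and Col6a2. At least 1.5-fold lower on both were 2 (3.58%), Dcn and Col11a2. Another 4, Col9a2, Loxl1, Adam3 and Adamts7, were at least 1.5-fold off in opposite directions on the arrays of this air (3.92% of all genes). Of these 4, Col9a2 and Adam3 had a sign that followed the dye over all arrays. Adam3 had -0.77 and -0.08 in Cy5 and 1.05 and 0.03 in Cy3, so its UCP values lay near 0. Loxl1 turned the other way in UCP air (-0.24 in Cy5 and 0.42 in Cy3) and Adamts7 was above 0 on both UCP arrays.

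In UCP air limma called 0 of the 77, with 0.0219% called of all genes, and 11 had an unadjusted p under 0.05 (9.37% of all genes). At least 1.5-fold higher on both arrays were 7, or 9.09%, beside 2.93% of all genes. They were Col3a1, Col1a2, Col6a1, Fn1, Timp1, Adam8 and Mmp13. At least 1.5-fold lower on both were 2, Dcn and Adamts1 (3.82% of all genes). The opposite-direction count was 2, Adamts12 and Adamdec1 (1.77%). Whether the share of higher genes differs between airs was not tested.

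The difference between the airs, UCP minus particle-free, was tested for each gene. Control lungs came from the same air as the challenged lungs, so differences in either cannot be told apart. Limma called 0 of the 77 and 0.0% of all genes, and 1 member, Col6a4, had an unadjusted p under 0.05 (3.94% of all genes). For Col6a4 the difference was 0.90 ± 0.33 (SE, limma adjusted p = 0.979, n = 2 a side). Both UCP arrays lay above both particle-free arrays for 16 genes (16.9% of all genes) and below for 5 (15.4%). Among the former were Adam30, with a difference of 0.75 ± 0.30, Adamts16 with 0.72 ± 0.36, Adamts10 with 0.66 ± 0.29, Adam7 with 0.61 ± 0.28 and Adam8 with 0.49 ± 0.29 (SE). The latter were Col5a3 at -0.89 ± 0.37, Dcn at -0.63 ± 0.31, Col2a1 at -0.38 ± 0.31, Adamts1 at -0.35 ± 0.25 and Mmp9 at -0.23 ± 0.27 (SE). By single probe the difference was -0.95 and 0.19 for Col2a1, so its probes disagreed, and 1.23 and 0.20 for Adamts16. Both arrays of 1 air above 0 and both of the other below 0 were seen for 5 genes (7.7% of all genes), Col6a4, Adam30, Adam7, Adamts16 and Col5a3. For Adamts16 this holds for the average of its probes, which lay at 0.98 and -0.24 in UCP air.

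For Col3a1 the airs nearly coincided, with means of 1.61 and 1.59 and a difference of -0.02 ± 0.46 (SE). For Fn1 the difference was 0.07 ± 0.26, for Timp1 0.03 ± 0.38 and for Sparc -0.02 ± 0.26 (SE).

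**Figure D4:**
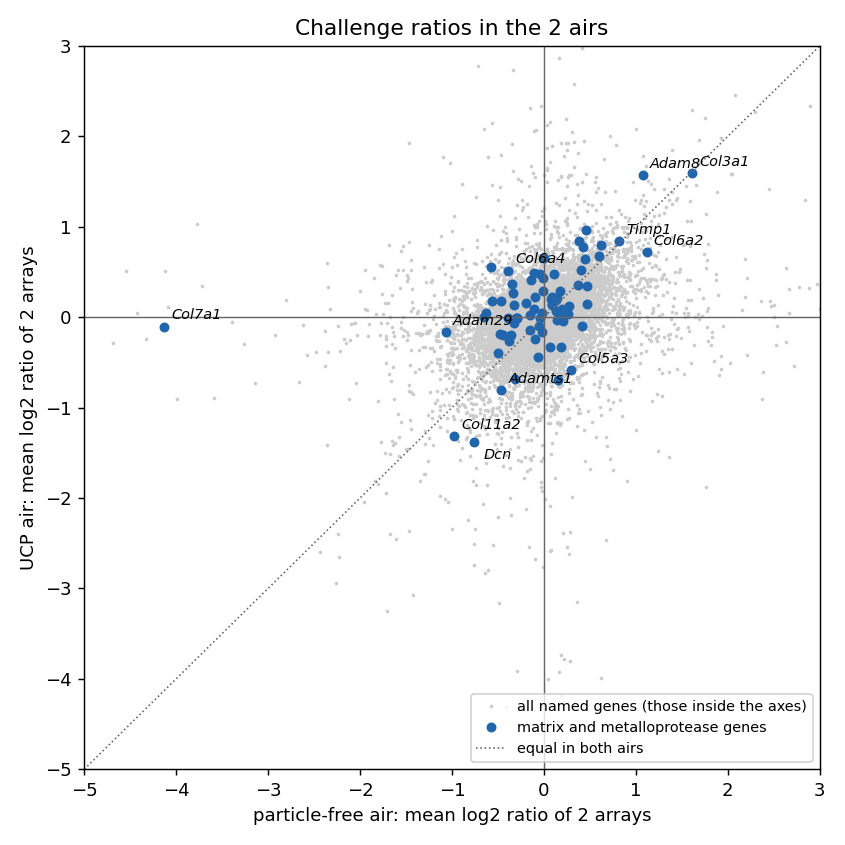
Mean log2 ratio of 2 arrays in particle-free air (x axis) against UCP air (y axis). Blue points are the 77 genes, grey points all named genes inside the axes, and the dotted line marks equal ratios. Col3a1 lies on the line at 1.61 and 1.59, Dcn below it at -0.76 and -1.39, and Col7a1 at -4.13 in particle-free air through a capped value.

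Other genes of matrix biology were read from lists of genes outside the group. Over all genes, for comparison with each list, limma called 0.0983% and gave 15.6% an unadjusted p under 0.05. Of the enzymes and chaperones of collagen synthesis 15 of 21 were measured, with 0 called by limma, 4 at an unadjusted p under 0.05, 9 above 0 and a median of 0.16. Plod1, a collagen lysyl hydroxylase, was low on all arrays at -1.59 ± 0.59 (SD, n = 4). P3h1 and Crtap, partners in prolyl 3-hydroxylation, were at 1.27 ± 1.77 and 0.89 ± 1.82, each carried by 1 array of particle-free air. Plod3 lay at 0.85 ± 0.96. Of other matrix proteins 22 of 35 were measured, 11 above and 11 below 0, 0 called and 6 at an unadjusted p under 0.05. The elastic fibre proteins Mfap4 and Emilin1 lay at 1.10 ± 0.23 and 1.16 ± 0.73, Thbs2 at 1.44 ± 3.07 and vitronectin (Vtn) at -0.78 ± 2.34.

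Of the transforming growth factor beta genes and targets 12 of 25 were measured, 6 on each side of 0, 0 called and 2 at an unadjusted p under 0.05. Tgfbi, a target that encodes a matrix adhesion protein, lay at 0.94 ± 0.40, the receptor Tgfbr2 at 0.64 ± 0.27, the ligand Tgfb1 at -0.77 ± 1.20 and Pdgfra at -0.61 ± 1.15 (SD, n = 4 each). Of other matrix proteases and inhibitors 14 of 20 were measured, 11 above 0, with a median of 0.39, 0 called and 5 at an unadjusted p under 0.05. The cathepsins Ctsk, Ctss and Ctsb lay at 2.61 ± 0.49, 2.27 ± 0.36 and 0.95 ± 0.16, and the broad protease inhibitor A2m at 1.005 ± 1.45 (SD, n = 4 each).

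Markers of cells that make or border matrix were set beside these values. On ratio arrays only the change of a list can be read, not whether its cells were present. Of 13 fibroblast markers measured 6 lay above and 7 below 0, with medians from -0.10 to 0.24 on single arrays, and 5 of them are themselves genes of the group. Periostin (Postn) lay at 0.63 ± 0.40 and dermatopontin (Dpt) at -0.37 ± 0.29. Of 8 smooth muscle markers 7 lay below 0, with medians from -0.50 to -0.11. Of 9 macrophage markers 7 lay above 0, with medians from 1.22 to 1.59 on all arrays. The 2 below 0 were Lyz2 at -0.34 and Marco at -0.36. Chil3 and Arg1, among those above 0, also belong to the 7 genes used for the overall sign. The part of macrophages in the high ratios of Adam8, Fn1 and Timp1 was not tested. Of 6 lung epithelial markers 3 lay above 0. The lowest were Cyp2f2 at -1.29 ± 0.39 and Sftpb at -0.88 ± 0.25 (SD, n = 4 each).

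Markers of tissues next to the lung differed between airs. Fat markers, 8 of 8 below 0, had medians of -0.86 and -0.92 in particle-free air and of -1.53 and -1.82 in UCP air. Heart muscle markers had 0.16 and 0.04 against -2.24 and -2.09, and thymus markers -0.26 and -0.30 against -1.58 and -1.56. Squamous epithelium markers had -1.08 and -1.64 against -1.78 and -1.81. Medians of liver markers were above 0, at 3.41 and 2.86 in particle-free air and 0.53 and 0.44 in UCP air. They too were lower in UCP air. Dcn, Adamts1, Col5a3, Col2a1 and Mmp9 had both UCP arrays below both particle-free arrays, as 15.4% of all genes did. All of these marker lists had lower medians in UCP air. The part of those tissues in the ratios of these genes was not tested.

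**Figure D5:**
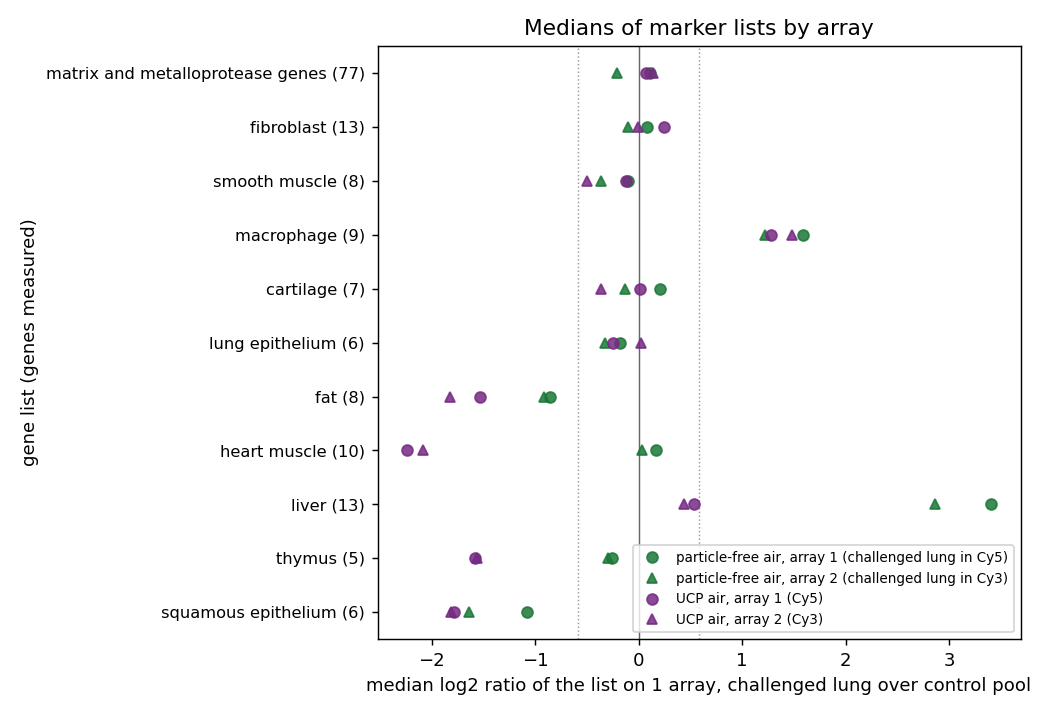
Median log2 ratio (x axis) of each marker list on each array, with the number of genes measured in brackets on the y axis. Colours mark air, symbols dye, and dotted lines a 1.5-fold difference. Macrophage medians lie between 1.22 and 1.59 on all arrays, heart muscle medians at -2.24 and -2.09 in UCP air alone, and the 77 genes stay between -0.21 and 0.14.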

How the data were processed

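The authors deposited 1 value per probe and array, a log2 ratio of the channels. The sources used here name no image software, background correction or normalization, so these steps are not given. On each array the values end on a plateau of 20 to 58 probes. Once a constant for each array was removed, the plateau equals a ratio capped alike on all arrays, which settled the log scale and the relative direction. Per the labels' protocols, 20 µg of total RNA was labelled indirectly. Of 20205 probes, 13852 had 1 symbol and 6353 none; 12532 named probes with values on all 4 arrays gave 9153 genes, with probes averaged by gene and no further scaling. No brightness was used here, so dim probes stayed in.

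Limma 3.58.1 (R 4.3.3) was fitted on all 9153 genes with 1 coefficient per air, 2 residual and 2.37 prior degrees of freedom, and no dye term. The average, each air and their difference were tested two-sided, with Benjamini-Hochberg adjustment over all genes at 0.05. The fit was tested on simulated data. Alternatives were other scaling, the dye as replicate block, left-out arrays, arrays averaged within an air, single probes, relaxed filters, capped probes and current symbols. Leaving out marker genes of other tissues was added without being planned.

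Named were the markers Col3a1, Col1a1, Fn1, Dcn, Eln and Sparc, up to 12 genes per direction with 1 sign on all arrays, up to 6 per direction between airs, fibrillar and basement membrane collagens, Timp and Lox genes, and up to 4 per list. The remaining members, and Postn and Dpt, were named after their values were seen. The members and lists were chosen with earlier results of these data known.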

Additional observations from a re-analysis of the deposited data

Results flagged for a closer look

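A second Col6a2 probe stayed out of every comparison because array 2 of particle-free air holds no value for it. Its mean over the other 3 arrays was 1.37, with 1.14 in particle-free air and 1.01 and 1.96 in UCP air, each at least 1.5-fold higher. The probe used in the report averaged 0.92.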

How the results depend on the processing

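Arrays of the same number share only a dye orientation, and their deviations from the air means correlated over genes at r 0.06 and rho 0.12 (0.09 and 0.12 without genes at the cap). The replicate block left 0 members called in each comparison and 15 at an unadjusted p under 0.05 in the average, beside 14 without it. Limma called 0 members in every comparison under every alternative run. Of 507 values of 39 named genes under the alternatives, 485 kept their direction. Some settings, among them the replicate block, averaging within an air and leaving out genes of other tissues, cannot change a gene's mean. Part of the 485 was thus fixed in advance. The adjusted p of Adam8 ran from 0.0611 to 0.442, of Col3a1 from 0.0895 to 0.495 and of Dcn from 0.0959 to 0.442. Genes past 1.5-fold in 1 direction on every array numbered 3, and 7 with the probe of smallest p per gene (5 higher, 2 lower), 7 over single probes (added after the data were seen) and 1 at 2-fold. Apart from single probes, the share of all genes was not counted under any alternative. No such change can thus be read as particular to the group. With arrays centred and scaled the lower count was 0. Leaving out 1 array at a time moved the count from 3 to 6, the higher ones from 2 to 5, the lower ones from 1 to 2 and the unadjusted count from 8 to 19. In the same settings signs turned for Adam7 (-0.0962 to 0.0273), Adamts16 (-0.14 to 0.15), Col27a1 (-0.027 to 0.365), Col4a2 (-0.181 to 0.026), Col5a1 (-0.0486 to 0.47), Col5a3 (-0.327 to 0.037), Col6a4 (-0.0462 to 0.175), Eln (-0.0298 to 0.345), Loxl1 (-0.52 to 0.80), Loxl2 (-0.13 to 0.10) and Loxl3 (-0.083 to 0.358). Admitting probes with a missing value moved Col11a1 to -2.16. Loxl2 also turned with arrays centred (0.0032), Loxl2 and Adam7 with arrays centred and scaled (0.0245 and 0.0193) and Adamts16 by single probe (-0.35). The cause was not tested. No brightness was used here, so signal over background is unknown for every gene.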
